A study of Mus musculus with 4 samples.

Results

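The cadherins, integrins, ephrins and semaphorins, with the protocadherins, contactins, Eph receptors and plexins, were measured in area CA1 of the hippocampus in 4 control samples. Members were the genes whose platform symbol begins with Cdh, Pcdh, Cntn, Itga, Itgb, Epha, Ephb, Efna, Efnb, Sema or Plxn, without Cdh5 and the Cntnap genes. This gave 106 probe sets, the sets of short oligonucleotides that each report a transcript, for 76 of the 8251 genes with exactly 1 symbol. A gene with several probe sets was represented by the probe set with the highest mean log2 signal, taken after low signals were raised to the floor given below. The name rule also took in Itgb1bp1, which binds the tail of an integrin but is not an integrin, and Cdhr5, a cadherin-related protein of epithelial brush borders.

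The samples were total RNA from CA1 of young male C57BL/6J mice, 1 sample on 1 array at each of 1, 2, 4 and 6 h. All were controls that an experimenter had handled and that received nothing else, and their hour is the time since treated mice, not analysed here, had their last shock. How many mice gave a sample is not stated. With 1 array an hour, a difference between hours has no replicate check, and it may be a difference between animals or arrays as much as between hours. Values are the authors' scaled intensities, called signals here, and 4 signals in a row are those at 1, 2, 4 and 6 h.

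Cadherins and protocadherins are calcium-dependent adhesion molecules that bind their like on the facing cell, and contactins are adhesion molecules anchored in the outer leaflet of the membrane by a lipid. Integrins are pairs of an alpha and a beta chain that hold cells to the extracellular matrix. Ephrins and semaphorins are guidance ligands, read by Eph receptors and by plexins, and in the adult hippocampus these systems act at dendritic spines and synapses.

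CA1 tissue was measured on every array, and the 2 h array stood apart from the rest. The CA1 pyramidal marker Wfs1 gave 2293, 1877, 2484 and 2508, and 4 of 5 measured CA1 markers passed the filter described next, Camk2a being the exception with 41.0, 351, 195 and 43.3. The 3' over 5' ratio of the Gapdh control, which grows as transcripts are covered less fully, was 1.08 at 2 h and 3.62 to 4.10 on the other arrays. That of the actin control was also lowest at 2 h but differed less, with 1.72 beside 2.27 to 2.93. Of the 5546 genes that passed, 61.4% had their highest or lowest signal on the 2 h array, against 45 to 48.3% for each other array. Of 4 measured choroid plexus and ependyma markers 3 passed, and their summed signals ranged from 662 to 1857, highest at 2 h, where Ttr (892) and Igfbp2 (711) were highest, whereas Kl was lowest there and Folr1 highest at 6 h. The summed CA3 and thalamus markers were also highest at 2 h, with 2291 and 2195, and the summed dentate markers lowest, with 396 beside 570.1 to 697 on the other arrays. Of the CA3 markers, Bok and Nptx1 were highest at 2 h, but Prss23 and Iyd at 4 h. Of the thalamus markers, Ramp3, Prkcd and Rora were highest at 2 h, but Tcf7l2 and Tac1 at 4 h and Calb2 at 1 h. The part of these differences in the results below was not tested, except where a value without the 2 h array is given.

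Signals under 36.8, the 20th percentile of all signals, were set to that floor, and a gene passed when its mean log2 signal reached 116.4, the 40th percentile. Of the 76 members, 46 passed, which is 60.5%, beside 67.2% of all 8251 genes. All 5 plexins, all 3 ephrin-B ligands and both EphB receptors passed. So did 5 of 7 EphA receptors, 8 of 13 cadherins, 10 of 16 semaphorins, 4 of 7 integrin beta chains, 5 of 12 integrin alpha chains, 2 of 5 ephrin-A ligands, 1 of 3 contactins and 0 of 2 protocadherins, along with Itgb1bp1. Just inside the filter lay Ephb3 (189.9, 166, 144 and 66.6) and just outside it Itgb2l (116, 47.4, 143 and 177). The members Efna4, Sema3b, Sema3c and Sema3f were at or under the floor on all 4 arrays, which is 5.26% of members beside 5.01% of all genes. A low signal may also come from a probe set that binds poorly, so a member that did not pass is not thereby absent from CA1. For the same reason signals rank a gene against itself on other arrays and not against other genes.

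**Figure D1:**
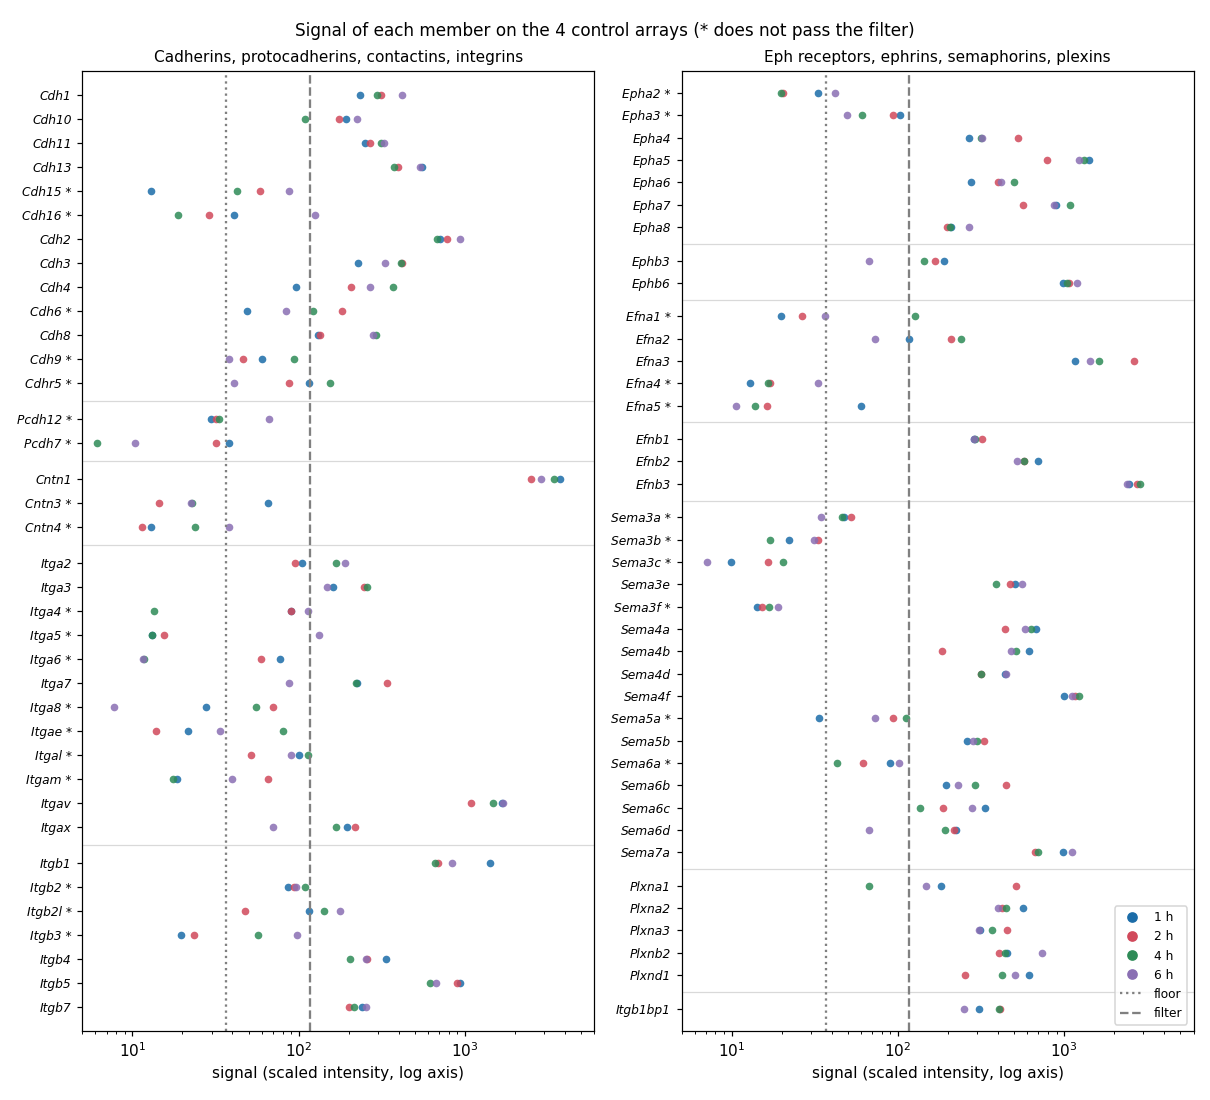
Signal (scaled intensity, log axis) of each of the 76 members on the 1, 2, 4 and 6 h control arrays, grouped by family, with the floor of 36.8 dotted and the filter of 116.4 dashed. Plexins and ephrin-B ligands lie to the right of the floor on every array, whereas Efna4, Sema3b, Sema3c and Sema3f lie to its left on all 4.

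The DNA upstream of the members differed in its content of CG dinucleotides, the sites of DNA methylation that cluster in the promoters of broadly active genes. The 250 bases upstream of a start were found for 56 of the 76 members by gene identifier in RefSeq sequences of build GRCm38.p6, and the dinucleotide CG, which reads the same on both strands, was counted in each window and averaged over a gene's starts. The median count was 16.0 over 36 members that passed and 7.0 over 20 that did not. Over all genes measured it was 16.0 for 4467 genes that passed and 8.0 for 2105 that did not, so the members were split much as other genes were. At least 10 CG dinucleotides were found for 72.2% of members that passed, 35.0% of those that did not, 76.6% and 46% of the measured genes that did and did not pass, and 38.5% of all 27025 genes of the table. Below are 4 windows, chosen after the values were seen to show high and low counts among members that passed and that did not, 5' to 3' with each CG in capitals. Ephb6 (chr6:41605261-41605510, plus strand) passed and has 27, Sema4f (chr6:82939770-82940019, minus strand) passed and has 4, Sema3c (chr5:17574566-17574815, plus strand) was under the floor on every array and has 39, and Itgam (chr7:128062390-128062639, plus strand) did not pass and has 6.
Ephb6: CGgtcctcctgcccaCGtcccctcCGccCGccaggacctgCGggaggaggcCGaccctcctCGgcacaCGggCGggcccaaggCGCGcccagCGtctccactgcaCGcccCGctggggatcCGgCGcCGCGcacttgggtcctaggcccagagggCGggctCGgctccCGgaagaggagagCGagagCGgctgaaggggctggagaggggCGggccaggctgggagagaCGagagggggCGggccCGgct
Sema4f: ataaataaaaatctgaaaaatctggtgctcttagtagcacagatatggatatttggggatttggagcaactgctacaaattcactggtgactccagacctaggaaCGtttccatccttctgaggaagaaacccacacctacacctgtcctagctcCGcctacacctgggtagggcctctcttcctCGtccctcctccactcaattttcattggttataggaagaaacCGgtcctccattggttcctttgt
Sema3c: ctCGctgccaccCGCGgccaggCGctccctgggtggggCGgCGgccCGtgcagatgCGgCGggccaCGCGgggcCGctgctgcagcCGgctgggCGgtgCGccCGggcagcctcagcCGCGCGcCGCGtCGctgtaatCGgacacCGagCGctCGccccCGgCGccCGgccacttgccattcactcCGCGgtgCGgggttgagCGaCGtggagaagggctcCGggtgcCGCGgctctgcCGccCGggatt
Itgam: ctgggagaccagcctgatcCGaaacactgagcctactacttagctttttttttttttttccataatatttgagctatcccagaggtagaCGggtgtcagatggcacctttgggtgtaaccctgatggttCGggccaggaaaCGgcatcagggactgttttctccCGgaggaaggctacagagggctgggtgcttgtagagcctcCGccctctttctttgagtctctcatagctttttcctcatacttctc
The 4 windows were picked for their counts and so support no relation to the signal, which also depends on how each probe set binds. The counts describe these letters and say nothing of methylation, which was not measured.

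**Figure D2:**
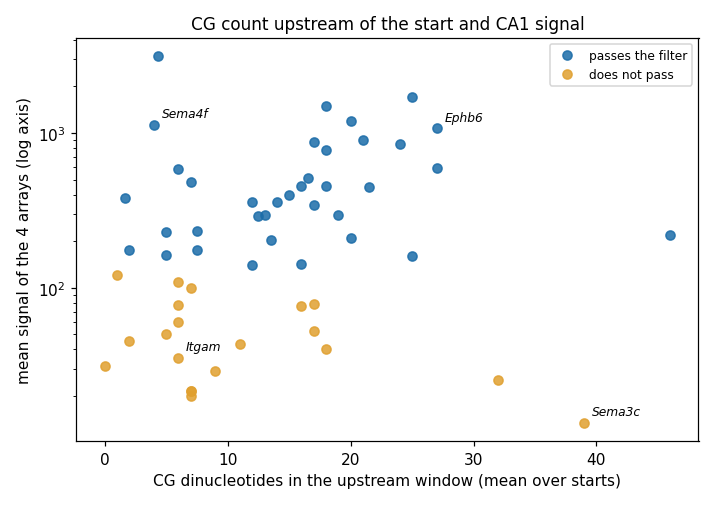
Mean signal over the 4 arrays (log axis) against the number of CG dinucleotides in the 250 bases upstream, averaged over starts, for the 56 members with a RefSeq window; blue members passed the filter and orange members did not. Members that passed have a median of 16.0 and those that did not a median of 7.0, with overlap between them.

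Cdh2, Cdh13 and Cdh11 were above the filter on all arrays. Cdh2, or N-cadherin, which joins the pre- and postsynaptic membranes, gave 713, 782, 682 and 934, a mean of 778 ± 112 (SD, n = 4), and its highest over its lowest signal was 1.37. Cdh13, or T-cadherin, which lacks a cytoplasmic tail and is held by a lipid anchor, gave 555, 395, 375 and 533, lower at 2 and 4 h than at 1 and 6 h. The osteoblast cadherin Cdh11, also made by neurons, gave 251, 268, 315 and 324, within a range of 1.29. These members stayed within a 1.5-fold range.

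Other cadherins that passed include those known from epithelia. P-cadherin, Cdh3, gave 227, 420.1, 412 and 332, lowest at 1 h, and its second probe set, which did not pass, was also lowest at 1 h, with 49.0, 172, 115 and 154. E-cadherin, Cdh1, the founding adhesion molecule of epithelia, gave 235, 311, 295 and 418, and the type II cadherin Cdh10 gave 192, 176, 109.7 and 223.

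The widest ranges among the cadherins that passed were those of Cdh4 and Cdh8. Cdh4, or R-cadherin, gave 96.8, 207, 372 and 269, so that the 1 h array was at least 2-fold below each other array, as in 1.14% of all genes. Its further probe sets were under the floor everywhere and give no second reading, with the highest signal at 34.3. Cdh8, a type II cadherin that sorts into specific circuits, gave 131, 134, 293 and 281, higher at 4 and 6 h than at 1 and 2 h. The pairing of hours was seen in the data and was not tested, and how many of all genes show it was not counted.

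Cadherins that did not pass included those of other tissues. Cdh15, or M-cadherin of muscle, gave 12.9, 58.2, 42.6 and 88.0, and the kidney cadherin Cdh16 gave 40.9, 28.7, 18.9 and 125. Cdh9, which is known from the synapses of dentate granule cells onto CA3 neurons, gave 59.9, 46.1, 94.4 and 38.1, Cdh6 gave 48.9, 183, 121 and 83.7 and Cdhr5 gave 115, 87.2, 155 and 41.0. The protocadherins with a symbol of their own, Pcdh7 and the endothelial Pcdh12, were at or near the floor. Pcdh7 gave 38.2, 31.7, 6.1 and 10.3. Pcdh12 gave 29.6, 31.9, 33.4 and 66.7, above the floor at 6 h alone. Of 7 measured endothelial markers 3 passed, and their summed signals ranged from 988 to 1526.

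Contactin 1, which recruits sodium channels to the membrane and binds the axonal protein Cntnap1 beside the nodes of Ranvier, gave 3734, 2493, 3430.2 and 2865, a mean of 3131 ± 557 (SD, n = 4). Its 2 h signal was the lowest, and it stayed within a 1.5-fold range. Cntn3 and Cntn4, members of the same family expressed in restricted sets of neurons, did not pass. Cntn3 gave 65.1, 14.4, 22.8 and 22.4, and Cntn4 gave 13.0, 11.4, 23.7 and 38.0.

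Of 12 integrin alpha chains 5 passed. Itgav, which pairs with several beta chains to bind vitronectin and fibronectin, gave 1678, 1084, 1469 and 1706, a mean of 1484 ± 287 (SD, n = 4), lowest at 2 h. Its second probe set that passed, with 269.8, 208, 249 and 455, was likewise lowest at 2 h and highest at 6 h. Itga3, a laminin receptor chain found at hippocampal synapses, gave 161, 248, 257 and 148 on the probe set used and 213, 121, 264 and 176 on another. The probe sets of Itga3 gave opposite differences at 2 h, 0.62 and -0.81 log2 against 1 h. Itga2, a collagen receptor chain, gave 105, 94.9, 168 and 191.

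Among the alpha chains 7 did not pass, and among the beta chains 3. Itgam, the alpha chain of the complement receptor of microglia and macrophages, gave 18.5, 65.4, 17.5 and 39.7, although 5 of 6 measured microglial markers passed, with summed signals of 5746 to 6576. Of the lymphocyte integrin chains, Itgal gave 100.8, 51.8, 114 and 89.9, and Itgae gave 21.7, 13.9, 80.4 and 33.5. None of the 4 measured T cell markers passed, and their summed signals ranged from 66.0 to 178.4. Itgb2, the beta chain shared by the white cell integrins, gave 85.9, 94.0, 109.7 and 96.1, all 4 between floor and filter. The fibronectin receptor chain Itga5 gave 13.2, 15.5, 13.2 and 132, above the floor at 6 h alone, and Itga4, Itga6 and Itga8, which bind matrix or vascular ligands, lay between 7.8 and 114 on the probe sets used. Itgb3, best known from platelets, gave 19.5, 23.6, 56.9 and 98.4, above the floor at 4 and 6 h, and Itgb2l, a gene closely related to Itgb2, did not pass.

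Integrin beta chains gave the following signals. Itgb1, the partner of most alpha chains and the main matrix receptor chain of the brain, gave 1415, 685, 665 and 838, a mean of 901 ± 351 (SD, n = 4). Its 1 h array stood at least 1.5-fold above each other array, as for 0.721% of all genes. A second probe set of Itgb1 with 276, 430.3, 256 and 355 had its highest signal at 2 h, so the 1 h excess was not repeated. Itgb5, a partner of Itgav, gave 929, 891, 620.4 and 673 on the probe set used, lower at 4 and 6 h, and 286, 317, 329 and 439 on another, higher at 6 h. Itgb4, the chain of epithelial hemidesmosomes, gave 337, 258, 203 and 253, and Itgb7, a lymphocyte chain that pairs with Itga4 and Itgae, gave 242, 202, 215 and 254. The integrin-binding protein Itgb1bp1, which restrains Itgb1, gave 309, 410.4, 404 and 251. Its other passing probe sets gave 250.3, 195.7, 512.3 and 387, and 220.6, 214.3, 275.7 and 291.1. Against 1 h both were lower at 2 h and higher at 6 h, opposite to the probe set used.

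Every ephrin-B ligand stayed within a 1.33-fold range, whereas each other family with more than 1 member above the filter held a wider one. Ephrin-Bs are transmembrane ligands, which also signal into the cell that bears them. Efnb3 gave 2469, 2751, 2878 and 2389, a mean of 2622 ± 231 (SD, n = 4), Efnb2 gave 698, 573, 571 and 523 and Efnb1 gave 288, 322, 290.0 and 286. Their ranges were 1.2-fold, 1.33-fold and 1.13-fold, the last the narrowest of all 46 members that passed. The other passing probe set of Efnb3 varied more, with 463, 865, 642 and 400.3, a 2.16-fold range with its highest signal at 2 h.

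Ephrin-A ligands, held to the membrane by a lipid, were less uniform. Efna3, which astrocyte processes in the hippocampus carry, gave 1169, 2616, 1631 and 1434, at least 1.5-fold above each other array at 2 h, where it was 2.24-fold the 1 h signal. Efna2 gave 117, 208, 240.4 and 72.7, with the 1 and 6 h arrays below the 2 and 4 h arrays. Efna1, Efna4 and Efna5 did not pass. Efna1 gave 19.8, 26.6, 127 and 36.3, above the floor at 4 h alone. Efna5 gave 59.7, 16.3, 13.9 and 10.7, above it at 1 h alone, and Efna4 gave 12.9, 17.1, 16.5 and 32.9.

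Eph receptors of the A class were measured next to their ligands. Epha4, the receptor that shortens dendritic spines when astrocytic ephrin engages it, gave 268, 526, 316 and 321, at least 1.5-fold above each other array at 2 h. Epha5 and Epha7, receptors of the same class in forebrain neurons, differed the other way. Epha5 gave 1418, 791, 1312 and 1237 and Epha7 gave 896, 568, 1079 and 867, both at least 1.5-fold below each other array at 2 h. On the probe sets used, the ligand Efna3 and the receptor Epha4 were therefore high, and the receptors Epha5 and Epha7 low, on the array with the Gapdh ratio of 1.08, whose part in this was not tested. The second probe sets of these receptors did not pass. That of Epha5 gave 28.9, 61.3, 80.2 and 64.4, lowest at 1 h. That of Epha4 gave 34.6, 57.8, 28.8 and 64.0, highest at 6 h, and that of Epha7 was under the floor on every array. Epha6 gave 277, 402, 498 and 418 and Epha8 208, 197, 207 and 269.5, while Epha2 and Epha3 did not pass. Epha2 gave 33.3, 20.3, 19.7 and 42.0, and Epha3 gave 102, 93.5, 60.7 and 49.7. In the B class, Ephb6, whose kinase domain is inactive, gave 986, 1066, 1044 and 1195, and its second probe set also had its lowest signal at 1 h and its highest at 6 h, with 333, 412, 446 and 492. Ephb3 gave 189.9, 166, 144 and 66.6, lowest at 6 h.

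Semaphorins of the membrane-bound classes made up most of those that passed. Sema4f, a transmembrane semaphorin found at postsynaptic sites, gave 1001, 1169, 1231 and 1118, a mean of 1129.5 ± 97.2 (SD, n = 4) and a range of 1.23-fold. The lipid-anchored Sema7a, which can act through Itgb1, gave 991, 671, 695 and 1121, higher at 1 and 6 h than at 2 and 4 h. Its second probe set, which did not pass, gave 131, 162.1, 139.1 and 48.6, highest at 2 h and lowest at 6 h. Sema4a gave 681, 439, 631 and 586, lowest at 2 h, and Sema4d, which promotes the assembly of inhibitory synapses through plexin B1, gave 443, 317, 314 and 449. Sema5b, which limits synapse number in cultured hippocampal neurons, gave 262, 329, 301 and 282. In class 6, Sema6b gave 195, 445, 291 and 230.1, highest at 2 h, Sema6c gave 333, 188, 136 and 278, lowest at 4 h, and Sema6d gave 223, 218, 193 and 66.6, lowest at 6 h.

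Secreted class 3 semaphorins passed in 1 case, Sema3e, the ligand of plexin D1, which gave 506, 473, 391 and 559.8. Sema3a, which repels axons through neuropilin and plexin A, gave 47.4, 52.1, 45.9 and 34.3. Sema3b, Sema3c and Sema3f stayed under the floor, with 14.2, 15.3, 16.9 and 19.1 for Sema3f. Of the other transmembrane members, Sema5a gave 33.5, 93.3, 113 and 72.4 and did not pass, and neither did Sema6a, which stayed under the filter on every array.

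Plexins, the receptors of semaphorins, all passed and included the member with the widest range. Plxna1 gave 182, 515, 67.3 and 148, a 7.65-fold range, with the 2 h array at least 2-fold above each other array, as in 1.37% of all genes, and the 4 h array at least 2-fold below, as in 1.12%. On the probe sets used, it was the 1 member with a range of 4-fold or more, beside 3.7% of all genes. Plxna1 has 1 probe set, and its 4 h signal lay under the filter of 116.4. The other passing probe set of Itga7 had a 6.48-fold range. Plxnd1, the receptor of Sema3e, gave 615, 254, 425 and 509, where the 2 h array lay 1.5-fold or more under all others. Plxna2 gave 564, 422, 445 and 398 and Plxna3, an X-linked plexin of neuropilin complexes, gave 311, 454, 369 and 308, both within a 1.5-fold range. Plxnb2, a receptor of class 4 semaphorins, gave 450.3, 406, 439 and 738, highest at 6 h, but 237, 377, 328 and 282 on its second probe set, highest at 2 h.

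The next question was how much the members varied over the control arrays beside other genes. The median range was 1.76-fold over the 46 members that passed and 1.51-fold over all 5546 genes that did. A range within 1.5-fold was found for 17 members, 37.0%, and for 48.8% of all genes, and a range within 2-fold for 30 members, 65.2%, and 79.6% of all genes. The median mean signal of these members was 359, and that of all genes that passed was 518. Among the 29 members with a mean at or above the pooled 60th percentile, a signal of 289, the share within 1.5-fold was 48.3%, beside 59.3% of 3912 genes. Among the 17 dimmer members it was 17.6%, beside 23.6% of 1634 genes. These classes did not equalise the signal, since the median mean signal in the brighter class was 508 for members and 781 for genes. In the dimmer class a range within 2-fold was found for 5 members, 29.4%, beside 54.8% of genes, and the median ranges were 2.28-fold and 1.88-fold. A range of 4-fold or more was found for 1 dimmer member, 5.88%, beside 10.7% of the dimmer genes. Without the 2 h array, 26 of the 46 members stayed within 1.5-fold over 3 arrays, 56.5%, beside 69.1% of all genes.

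**Figure D3:**
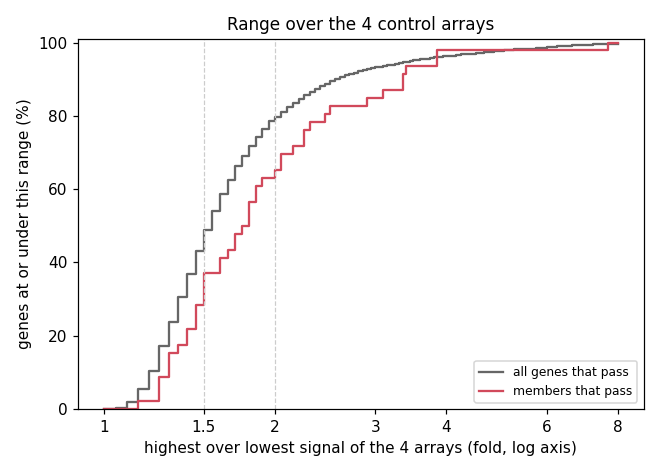
Share of genes (%) at or under a given range, the highest over the lowest signal of the 4 control arrays (log axis), for the 46 members that passed (red) and all 5546 genes that passed (grey). The red line lies under the grey one at 1.5-fold and 2-fold, where 37.0% and 65.2% of members stand beside 48.8% and 79.6% of all genes.

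Differences from the 1 h array were counted at 2-fold. At 2 h, 7 of the 46 members stood at least 2-fold from the 1 h signal, 15.2% beside 8.67% of all genes. Of these, 4 were at least 2-fold higher, 8.70% beside 5.7% of all genes, and 3 were at least 2-fold lower, 6.52% beside 2.98%. The higher members were Plxna1 (2.83-fold) and, as log2 differences, Sema6b (1.19), Efna3 (1.16) and Cdh4 (1.10), a plexin, a semaphorin, an ephrin and a cadherin. The lower members were Sema4b (-1.74), Plxnd1 (-1.28) and Itgb1 (-1.05). Sema4b, a transmembrane semaphorin, gave 617, 184, 514 and 482, with the 2 h array under all others by 2-fold or more, as in 0.956% of all genes. Another probe set of Sema4b gave 232, 361, 179 and 438, with a 2 h signal above the 1 h signal. With 1 sample an hour, and since fewer cells of a type and less RNA per cell cannot be told apart in tissue RNA, these counts describe the arrays.

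At 4 h the count was 6, 13.0% beside 5.46% of all genes. Of these, 3 were at least 2-fold higher than at 1 h, 6.52% beside 3.05% of all genes, and 3 were lower, 6.52% beside 2.42%. Cdh4 (1.94 log2), Cdh8 (1.16) and Efna2 (1.04) were higher, and Plxna1 (-1.44), Sema6c (-1.30) and Itgb1 (-1.09) lower. At 6 h it was 6 again, 13.0% beside 5.95%. Of these, 2 were at least 2-fold higher, 4.35% beside 3.26%, again Cdh4 (1.48) and Cdh8 (1.10). At least 2-fold lower at 6 h were 4 members, 8.70% beside 2.69%. These were Sema6d (-1.75), Ephb3 (-1.51), Itgax (-1.46) and Itga7 (-1.36), and each was also at least 2-fold below every other array, as 1.33% of all genes were. Itgax, an integrin chain of dendritic cells and activated microglia, gave 194, 218, 168 and 70.5, while the summed microglial markers gave 6514, 6576, 5746 and 6468. Itga7, a laminin receptor chain of muscle and some neurons, gave 225, 338, 221 and 87.9, and its second probe set was also lowest at 6 h, with 154, 253, 471 and 72.7.

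The 6 h signals of these 4 members lay between 66.6 and 87.9, under the filter of 116.4. A stricter filter, at the 60th percentile, left counts of 4, 1 and 0 at 2, 4 and 6 h instead of 7, 6 and 6. That filter also left fewer members, 29, so the counts have a smaller base. They were not set beside all genes under the same filter. Whether members still differed by 2-fold more often than other genes there was therefore not tested. The 3 comparisons share the 1 h array, so Cdh4, low at 1 h, enters all of them. After quantile normalization or median centring, Cdh4 at 2 h, Efna2 at 4 h and Cdh8 at 6 h were no longer 2-fold higher, so that 1 member was higher and 4 lower at 6 h, in place of 2 and 4. Median centring lowered the median of all genes against 1 h to -0.14, -0.10 and -0.13 log2 at 2, 4 and 6 h.

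**Figure D4:**
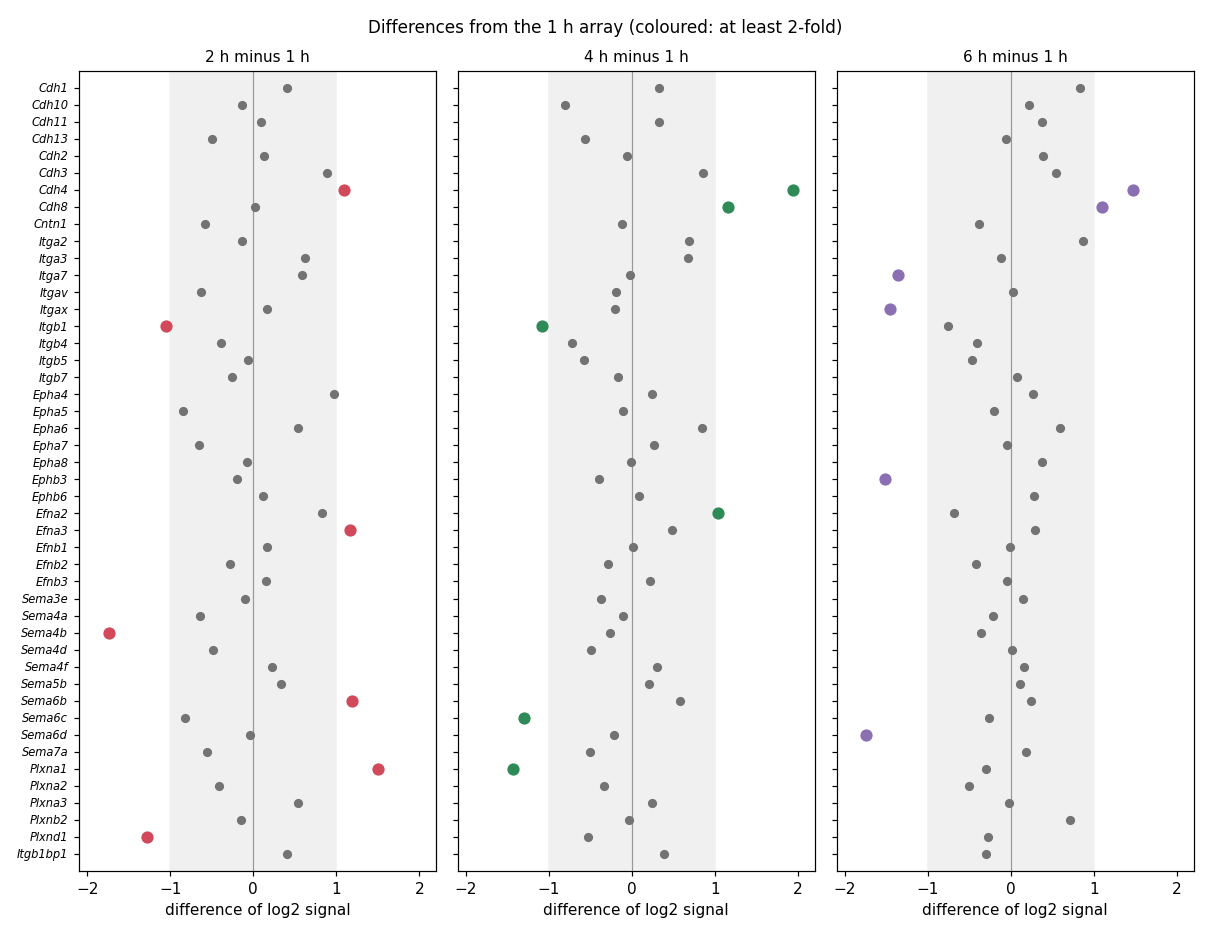
Difference of log2 signal from the 1 h array at 2, 4 and 6 h for the 46 members that passed, with differences of at least 2-fold coloured and the grey band marking less than 2-fold. Coloured points number 7 at 2 h, 6 at 4 h and 6 at 6 h, with Cdh4 to the right in all 3 panels.

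The next counts were of members for which a single array stood outside the others. The 2 h array lay outside the other 3 arrays, above or below, in 23 of 46 members, 50.0%, beside 61.4% of all genes. The 1 h array did so in 26 members, 56.5% beside 48.3%, the 6 h array in 25, 54.3% beside 45.2%, and the 4 h array in 18, 39.1% beside 45%. At 2 h, 5 members were at least 1.5-fold above each other array, 10.9% beside 4.62%, namely Plxna1, Sema6b, Efna3, Epha4 and Itga7. Lower than all others by 1.5-fold or more were 4, 8.70% beside 4%, namely Sema4b, Plxnd1, Epha5 and Epha7. Across the 46 members, log2 differences spread most between the 2 and 6 h arrays, with an SD of 0.82, and had an SD of 0.63 to 0.68 in the other pairs. Over all genes the SD was 0.61 for that pair, 0.62 for 2 h against 1 h and 0.51 to 0.58 for the rest. Between 2 and 4 h, 3 members, 6.52%, were at least 2-fold apart, beside 7.65% of all genes. Between 2 and 6 h it was 10 members, 21.7% beside 9.05%, and between 4 and 6 h 8 members, 17.4% beside 6.53%.

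Whether any member followed the hours was tested as a slope of log2 signal per hour with limma over all 7237 probe sets that passed. None of the 46 members was called, and neither was any other gene (0% of 5546), and no adjusted p was lower than 0.9996. Without adjustment limma gave 3 members a p under 0.05, 6.52% beside 2.69% of genes. These p-values set the slope against the spread of single arrays around a line, which has 2 residual degrees of freedom. That spread was moderated by limma with a variance prior drawn from all 7237 probe sets. The log2 signal of Sema6d had an hourly slope of -0.33 ± 0.13 (moderated SE over 4 arrays), Itga7 -0.30 ± 0.12 and Cdh8 0.26 ± 0.11. Without the 6 h array the slopes of Sema6d and Itga7 were -0.07 and -0.05, and that of Cdh8 was 0.41. Of the 46 slopes 25 were above 0 and 21 below, with a median of 0.0050 beside 0.0052 over all genes. In simulated data of this size the test found 0% of probe sets with a slope of 0.4 and 82.5% of those with 0.8, so trends as shallow as the former were not detectable with 4 arrays.

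A second reading came from further probe sets of the same gene, which report the same RNA on the same array. Of 24 members with several probe sets, 10 had more than 1 that passed, giving 11 second readings. The second reading differed from 1 h in the same direction as the probe set used in 4 of 11 cases at 2 h, 8 at 4 h and 6 at 6 h. Ephb6, Efnb3 and Itgav gave the same direction at all 3 hours. Among members at least 2-fold from 1 h, the difference of Itga7 at 6 h was repeated in direction (-1.36 and -1.09 log2). So was that of Itgb1 at 4 h, though its second reading was small (-1.09 and -0.11). Those of Sema4b at 2 h (-1.74 and 0.64) and Itgb1 at 2 h (-1.05 and 0.64) were not.

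**Figure D5:**
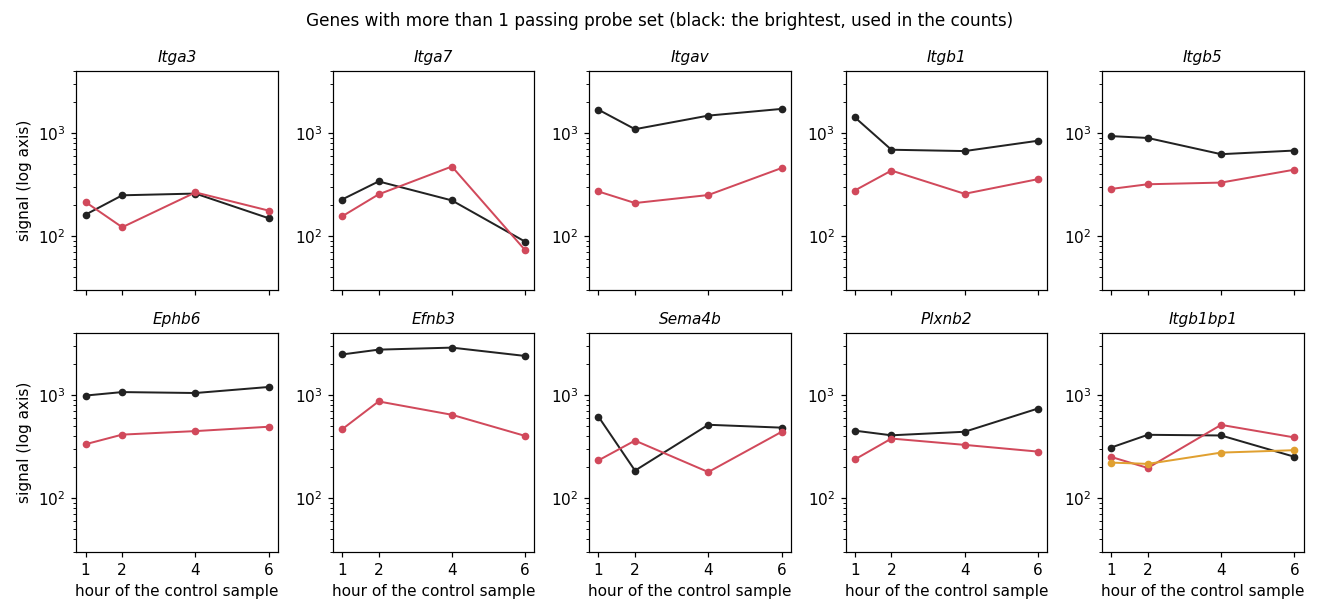
Signal (log axis) against the hour of the control sample for the 10 members with more than 1 probe set that passed, black for the probe set used in the counts and red or yellow for the others. Both lines of Ephb6 are lowest at 1 h and highest at 6 h, those of Itga7 both end low at 6 h, and those of Sema4b and Itgb1 diverge at 2 h.

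Partners of these families were taken from a list of 70 genes of catenins, matrix ligands, neuronal adhesion molecules and cytoskeletal effectors, of which 58 were measured and 45 passed. limma called 0 of the 45, and 3 had an unadjusted p under 0.05 (Ctnnd2, Dab1 and Pxn), 6.67% beside 2.69% of all genes. Their median range was 1.54-fold, with 19 within 1.5-fold, 42.2% beside 48.8% of all genes, and 35 within 2-fold, 77.8% beside 79.6%. At 2 h, 3 partners were at least 2-fold higher than at 1 h, 6.67% beside 5.7% of all genes, and 5 lower, 11.1% beside 2.98%. At 4 h, 3 were higher, 6.67% beside 3.05%, and at 6 h 2 were, 4.44% beside 3.26%. At both hours 0 were lower by 2-fold, beside 2.42% and 2.69% of all genes. At 2 h the largest differences upward were those of vitronectin, Vtn (1.27 log2, 121, 293, 209 and 254), a ligand of Itgav, and of Icam5 (1.09, 1346, 2858, 1645 and 1965), an adhesion molecule of dendrites that white cell integrins bind. Downward they were those of the kinase Fyn (-1.46, 2868, 1045, 2138 and 2376), which signals below Eph receptors and contactins, and of laminin alpha 1, Lama1 (-1.41, 193, 72.6, 97.2 and 179.9). At 6 h Vtn (1.07) and the reelin adaptor Dab1 (1.05, 632, 1021, 1299 and 1311) stood highest against 1 h, and the laminin chains Lama5 (-0.76, 182, 69.4, 189.5 and 108) and Lamc1 (-0.68, 309, 332, 337 and 193) lowest.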

How the data were processed

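The authors deposited an unlogged intensity for each probe set of each array. The software that made it is not named in the sources at hand. Scaling of every array to a common level had been done before deposit, judging by the values, whose means without the 2% at either end lay at 500.3 on all 4 arrays. Of 12488 probe sets, 66 were controls, 10833 had 1 symbol in the platform annotation, 396 several and 1193 none. Updating symbols through gene identifiers changed 0 of the 76 members. Coordinates come from RefSeq windows of build GRCm38.p6 and not from the arrays.

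Intensities were used as deposited, floored, put on a log2 scale and filtered as the report states. The slope was fitted with limma 3.58.1 in R 4.3.3 (mean-dependent variance prior, 2 residual degrees of freedom, two-sided, Benjamini-Hochberg at 0.05 over 7237 probe sets) and tested on simulated data. Differences from 1 h carry no test. Shares of all genes use 1 probe set a gene. Of the members that passed, 5 rest on probe sets whose name marks shared or incomplete probes. These are Itga7, Itgav, Itgb1, Sema4b and Sema6c, and all but Itgav are among the members at least 2-fold from 1 h. Without such probe sets 43 members passed, and 5, 5 and 6 were at least 2-fold from 1 h at 2, 4 and 6 h. The number of arrays limits the precision.

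Members, lists and tests were chosen with earlier results of these data known. Named genes were all members, with 4 signals for those with the highest means, the widest ranges or 2-fold differences, and the partner genes with the largest differences; other values were named after they were seen. Alternatives covered normalization, floor, filter, probe set choice, symbols, time scale, variance prior, fold, reference and leaving out each array. Further marker lists gave passing counts of 2 of 4 (CA3), 2 of 4 (dentate gyrus), 8 of 8 (interneurons), 6 of 6 (astrocytes), 6 of 7 (oligodendrocytes), 1 of 6 (blood), 4 of 5 (meninges) and 6 of 6 (thalamus and habenula). Python 3.11.15, pandas 2.3.3, numpy 2.4.6 and matplotlib 3.10.9 were used.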

Additional observations from a re-analysis of the deposited data

How the results depend on the processing

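The count of members called by limma for a trend (0) stayed at 0 under every alternative that kept the adjusted p, and was 3 at an unadjusted p under 0.05. The counts at least 2-fold from 1 h (7, 6 and 6 at 2, 4 and 6 h) became 13 at 4 h and 13 at 6 h without a filter, 4, 1 and 0 with the filter at the 60th percentile, 17, 12 and 12 at 1.5-fold, and 4 at 2 h and 2 at 4 h against the mean of the other 3 arrays. The stricter filter leaves 29 members in place of 46. The count within a 1.5-fold range (17) was 12 after median centring, 26.1% of members beside 46.1% of all genes. It was 14 with the stricter filter, 48.3% beside 59.3%, and 20 with probe sets averaged. Without a filter, where members at the floor cannot vary, it became 26. It was 19 to 26 when 1 array at a time was left out, with 26 without the 2 h array. Over the same 46 members, an alternative added after seeing the data, it was also 26 without the 2 h array, 56.5% beside 69.1%. A range over 3 arrays is narrower by construction. The other alternative counts of ranges and differences were not set beside all genes here. The median range (1.76) was 1.69 after median centring, 1.55 with the stricter filter, 1.52 when a gene was the average of its probe sets, 1.47 over the same 46 members without the 2 h array, and 1.48 to 1.60 when each array was left out. Between 46 and 47 members passed without any 1 array. The slopes of Sema6d, Itga7 and Cdh8 kept their sign under the alternatives run for them. No paired analysis was possible because each hour has 1 sample and all 4 titles carry the same ordinal, whose meaning is not stated.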

Other observations

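Probe sets of the alpha protocadherin cluster, neuronal adhesion genes that share their last exons, carry 9 or 14 symbols each and so belong to no gene in the counts. Of 8 such probe sets 7 passed. At 1, 2, 4 and 6 h, the first of those with 14 symbols gave 2374, 2573, 2195 and 4259, highest at 6 h. Another gave 2785, 1789.6, 2655 and 2233, lowest at 2 h. The last gave 450.2, 389, 781 and 475, highest at 4 h. Which isoform these signals stand for cannot be read from the arrays. The 2 named probe sets left out by rule were those of Cdh5, or VE-cadherin of endothelium, with 26.5, 51.5, 126 and 161, which did not pass, and of Cntnap1, the axonal partner of contactin 1, which did with a mean of 242 ± 21.7 (SD, n = 4).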
